A study of Homo sapiens with 12 samples.

Results

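The comparison described here sets HEK293T cells that lack 4EHP (4EHP-null) against wild-type HEK293T cells (WT) by mRNA abundance. It used the 4 RNA-seq libraries of those genotypes, 2 each, out of 12 libraries in the series, chosen by their genotype and assay labels. Of 27011 genes in the count table, 15637 passed a filter on low counts and were tested, and these are the genes described below. HEK293T is a transformed human embryonic kidney line. For every genotype untreated cells were plated on 15 cm dishes and harvested 24 h later, and libraries were made with a TruSeq kit from column-purified total RNA. A pair of RNA-seq libraries from cells without GIGYF1 and GIGYF2 (GIGYF1/2-null) shared the estimate of spread, and ribosome footprints (Ribo-seq) of the same genotypes served as a second readout. The labels do not say how the lines were made, how many clones each represents, or whether replicates were separate cultures. The p-values therefore measure only the spread between these libraries, which may be technical, and clone and genotype cannot be told apart.

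4EHP, encoded by EIF4E2, is a relative of the cap-binding initiation factor eIF4E. It binds the mRNA cap but does not recruit eIF4G, so that a transcript held by 4EHP is kept from initiating translation. It works with the scaffold proteins GIGYF1 and GIGYF2, is brought to mRNAs by RNA-binding proteins, the microRNA machinery and sensors of stalled ribosomes, and has been linked to translational repression and to mRNA decay.

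The targeted gene was lower in the 4EHP-null cells. EIF4E2 had 50.98 and 46.71 CPM in the 4EHP-null libraries, against 123.02 and 123.13 CPM in the WT libraries. That is a log2 fold change of -1.33 ± 0.08 (4EHP-null over WT, standard error; adjusted p = 5.92e-07). The remaining reads were not resolved by exon, so the counts do not show whether they came from an altered transcript. CPM are counts of a gene relative to the library total, scaled by edgeR's TMM factors. Below, fold changes are log2 of 4EHP-null over WT with their standard error, and a gene is called when its Benjamini-Hochberg adjusted p from edgeR's quasi-likelihood test is under 0.05.

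Depth was 26143118 to 38175701 counts per RNA-seq library. Over 11735 genes with an average log2 CPM of at least 2, the log2 difference between replicates had an SD of 0.220 in 4EHP-null and 0.178 in WT, and 19 genes in 4EHP-null and 5 in WT were over 2-fold apart between replicates. The HEK293T label was checked against markers. Of the renal and epithelial markers, PAX2, LHX1, KRT8 and KRT18 had counts in every library of both genotypes, while KRT19 and CDH6 were at 0 counts in all 4. The defining markers of other lineages were at or near 0: the leukocyte gene PTPRC had no count in any of the 4 libraries, nor did COL1A2, APOB or TTR. The summed level of 6 leukocyte markers was 2.38 and 2.59 CPM in 4EHP-null, against 2.44 and 2.93 CPM in WT. In bulk RNA, fewer cells that express a gene and less RNA per cell cannot be told apart.

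Loss of 4EHP was accompanied by changes in both directions in near-equal numbers. Of 15637 genes, 1012 were higher and 1036 lower in 4EHP-null cells, which is 13.1% called in all, 6.47% up and 6.63% down. Most changes were small: 573 of the higher and 593 of the lower genes differed by under 1.5-fold, and the median log2 fold change was 0.55 among called rises and -0.53 among called falls. At least 2-fold differences were found for 202 higher genes (1.29% of those tested) and 241 lower genes (1.54%). At 4-fold or more the falls outnumbered the rises, 95 against 48. The calls rest on few libraries: without any 1 of the 4, between 810 and 1125 genes were called, and 507 of the 2048 calls held in all 4 such fits. Without genes that lie in runs of neighbours moving together, 1359 genes were called. The counts here and below come from the fit without a replicate term; with the replicate number as a block 3571 genes were called (22.8%), 1820 up and 1751 down, all 2048 among them.

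**Figure D1:**
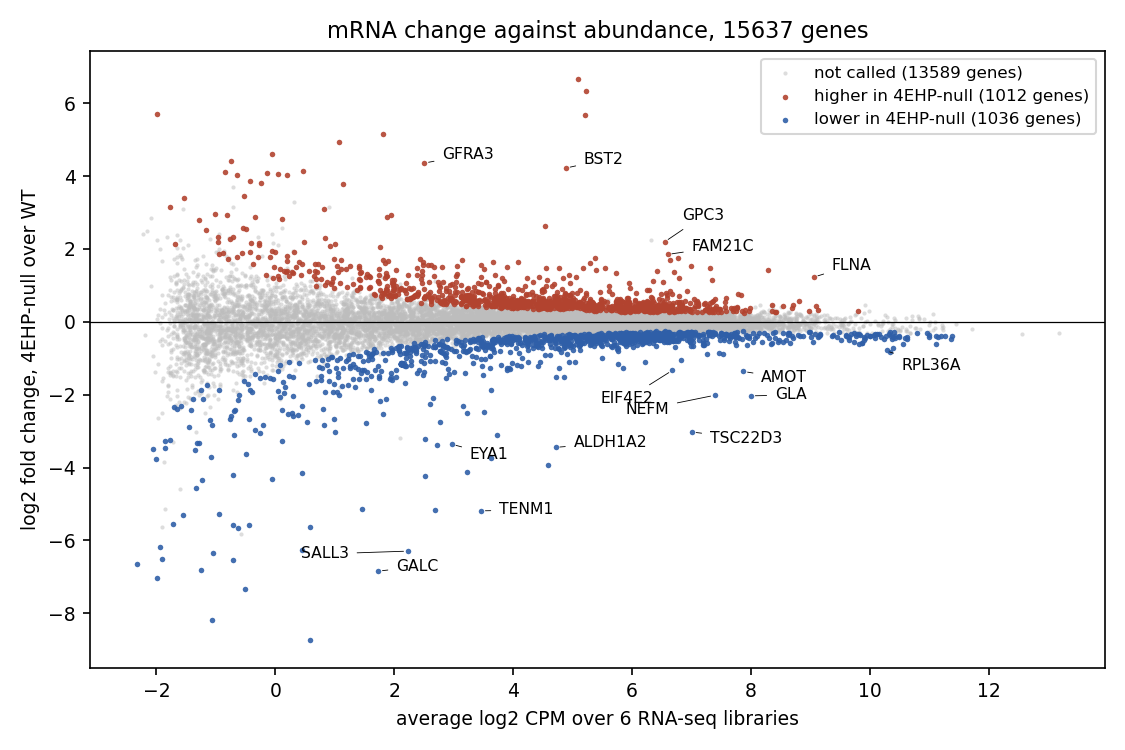
Log2 fold change of 4EHP-null over WT against average log2 CPM for all 15637 genes tested, with called genes in colour. Called rises (1012) and falls (1036) are near equal in number, EIF4E2 lies at -1.33, and the 3 red points above 5.5 near a log2 CPM of 5 are RMRP, RPPH1 and MIR6087, each high in 4EHP-null replicate 2 only.

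At the top of the abundance range falls outnumbered rises. Among 624 genes with an average log2 CPM over 8, 14 were higher and 101 lower in 4EHP-null. The split under other scalings and tools was 14 and 97 with RLE, 13 and 115 with upper-quartile scaling, 24 and 125 in DESeq2. Cytosolic ribosomal protein symbols (RPL and RPS) made up 51 of the 101 falls, from 81 such genes, with a median log2 fold change of -0.37. The other 543 very abundant genes had 14 rises and 50 falls and a median of -0.05. These splits were not counted with the replicate block or with a library left out. RPL36A, a component of the large ribosomal subunit, had 879 and 915 CPM in 4EHP-null, against 1539 and 1641 CPM in WT (-0.83 ± 0.10, adjusted p = 0.000191). Its readthrough RPL36A-HNRNPH2 (-0.76 ± 0.09) shares reads with it, so the values of these overlapping entries are not separate measurements. HNRNPH2, which lies beside it and encodes an RNA-binding splicing regulator, was at -0.22 and was not called (adjusted p = 0.378).

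Some genes transcribed in WT cells were nearly absent without 4EHP. By a rule set after the values were seen, near-absent genes were those with a call and at most 3 counts in each library of a genotype. Such genes passed the low-count filter only through libraries of other genotypes. Genes without a call that met the count limit were not counted, so the numbers are a description. Picked on the counts printed below, 36 of 15637 tested genes were near absent in 4EHP-null and 6 in WT. Of these 42, 13 kept their call in all 4 fits that left out a library. GALC, the lysosomal enzyme that degrades galactosylceramide, had 2 and 0 counts in 4EHP-null, against 137 and 150 in WT. The ratio of WT to 4EHP-null was 127 (95% exact interval 34.8 to 1053, counting error only; adjusted p = 1.49e-06). PAX1, a paired-box regulator of axial skeleton and thymus development, had 0 and 0 counts in 4EHP-null and 45 and 66 in WT, at least 16.02-fold lower with a floor of 3 counts per library.

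HORMAD1, a meiotic chromosome axis protein, had 0 and 0 counts in 4EHP-null, against 32 and 44 in WT, at least 11.01-fold lower. SLC35F3, a thiamine transporter, had 0 and 0 in 4EHP-null against 19 and 23 in WT, at least 6.13-fold lower. DIO2, which converts thyroxine to active thyroid hormone, had 0 and 0 in 4EHP-null against 16 and 18 in WT, at least 4.98-fold lower. MIR31HG, the host transcript of miR-31, had 0 and 0 in 4EHP-null against 12 and 17 in WT, at least 4.19-fold lower; mature miR-31 was not measured here. The hematopoietic cortactin relative HCLS1 had 2 and 2 counts in 4EHP-null, against 36 and 53 in WT. The voltage-gated potassium channel KCNA6 had 1 and 0 in 4EHP-null, against 29 and 37 in WT, and the plasma membrane calcium pump ATP2B3 had 2 and 0 against 21 and 30. FANCF, a Fanconi anaemia core protein with 0 and 0 counts in 4EHP-null against 15 and 8 in WT, lost its call without WT replicate 1 and without either 4EHP-null replicate. In the other direction SLC4A10, a neuronal bicarbonate transporter, had 39 and 15 counts in 4EHP-null and 2 and 2 in WT.

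Among genes with an average log2 CPM of at least 2, the largest falls included transcription factors, adhesion molecules and secreted proteins. SALL3, a zinc-finger factor of limb and nerve development, had 0.0306 and 0.152 CPM in 4EHP-null, against 7.46 and 6.51 CPM in WT (-6.29 ± 0.36, adjusted p = 3.69e-07). NRXN3, a presynaptic adhesion molecule, had 0.306 and 0.305 CPM in 4EHP-null, against 9.62 and 12.3 CPM in WT (-5.15 ± 0.26, adjusted p = 9.86e-08). TENM1, a teneurin, was at -5.19 ± 0.21. EYA1, a transcriptional coactivator and phosphatase of kidney and ear development, had 1.04 and 0.838 CPM in 4EHP-null, against 9.25 and 10.2 CPM in WT (-3.36 ± 0.19). FBXL16, an F-box protein, was at -3.73 ± 0.19, and the splicing regulator CELF2 at -2.75 ± 0.24. CHRDL1, a secreted BMP antagonist, was at -3.22 ± 0.35, and the testican SPOCK1 at -3.39 ± 0.41. All of these calls held without any 1 library.

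TSC22D3, the glucocorticoid-induced leucine zipper protein, fell furthest among genes with an average log2 CPM of at least 6. It had 16.5 and 21.9 CPM in 4EHP-null, against 135.2 and 176.1 CPM in WT (-3.02 ± 0.20, adjusted p = 1.27e-06). AMOT, an angiomotin that binds the Hippo effector YAP, had 108 and 126 CPM in 4EHP-null, against 293 and 306 CPM in WT (-1.36 ± 0.09, adjusted p = 1.49e-06). ADAMTS1, a secreted metalloprotease that cleaves proteoglycans, had 54.5 and 69.1 CPM in 4EHP-null and 121 and 132 CPM in WT (-1.04 ± 0.11). The neurofilament genes NEFM (-2.02 ± 0.14) and NEFL (-1.11 ± 0.08) fell with them. All 5 falls were larger than the difference between replicates. Genes were named partly for small adjusted p-values, so this is a description of picked genes.

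**Figure D2:**
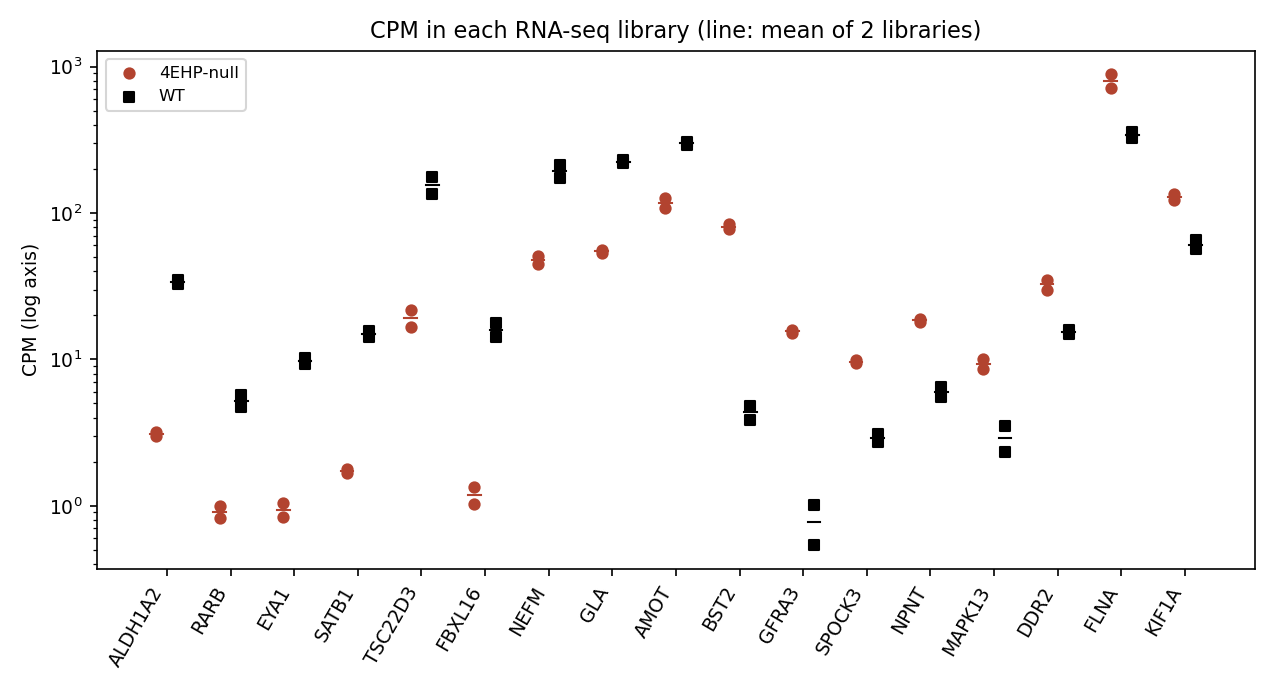
CPM on a log axis in each 4EHP-null library (circles) and each WT library (squares) for 17 named genes, with a line at each mean of 2 libraries. The genes on the left, ALDH1A2 to AMOT, are lower in both 4EHP-null libraries, and those on the right, BST2 to KIF1A, are higher in both.

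HOX genes, the clustered homeobox regulators that set positional identity along the body axis, fell as a group. Of 39 HOX genes counted, 36 were tested; 22 were called lower and 0 higher, 61.1% called, where 6.63% of all genes were called lower. Their median log2 fold change was -0.63, against -0.0030 over all tested genes. Both 4EHP-null libraries lay below both WT libraries for 32 of the 36, against 29.1% of all genes below and 28.3% above. Their summed level was 805 and 790.5 CPM in 4EHP-null, against 1179 and 1129 CPM in WT. Leaving out 1 library gave 14 to 19 called falls, the 14 without 4EHP-null replicate 2; leaving out genes in runs of neighbours, which the clusters themselves form, gave 8. With the replicate block 27 were lower and 1, HOXA11, was higher.

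All 4 clusters held called falls, and members differed in size of change. HOXA had 8 of 11 genes called lower (median -0.60), HOXB 7 of 9 (-0.86), HOXC 4 of 8 (-0.56) and HOXD 3 of 8 (-0.60). The largest fall with a call was in HOXB5, with 5.01 and 4.08 CPM in 4EHP-null, against 17.6 and 15.8 CPM in WT (-1.87 ± 0.15, adjusted p = 5.92e-06). HOXB6 had 30.04 and 28.27 CPM in 4EHP-null, against 67.8 and 72.4 CPM in WT (-1.27 ± 0.09, adjusted p = 1.97e-06). HOXB9, among the most abundant, had 114 and 104 CPM in 4EHP-null, against 206 and 192 CPM in WT (-0.86 ± 0.08, adjusted p = 3.96e-05). HOXB8 (-1.32 ± 0.12), HOXC6 (-0.97 ± 0.15), HOXB2 (-0.95 ± 0.14) and HOXA5 (-0.70 ± 0.10) were also called without any 1 library. Split after the values were seen, paralogues 1 to 9 had 18 of 26 genes called lower and a median of -0.73, and paralogues 10 to 13 had 4 of 10 and a median of -0.28. HOXD13 had 152 and 160 CPM in 4EHP-null, against 171 and 159 CPM in WT (-0.08 ± 0.08), and HOXA11 was at 0.24 ± 0.09 with an adjusted p of 0.119 (0.0455 with the replicate block, both from edgeR). HOXB13 was at -0.10 ± 0.11. No test of the difference between the paralogue groups was run.

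**Figure D3:**
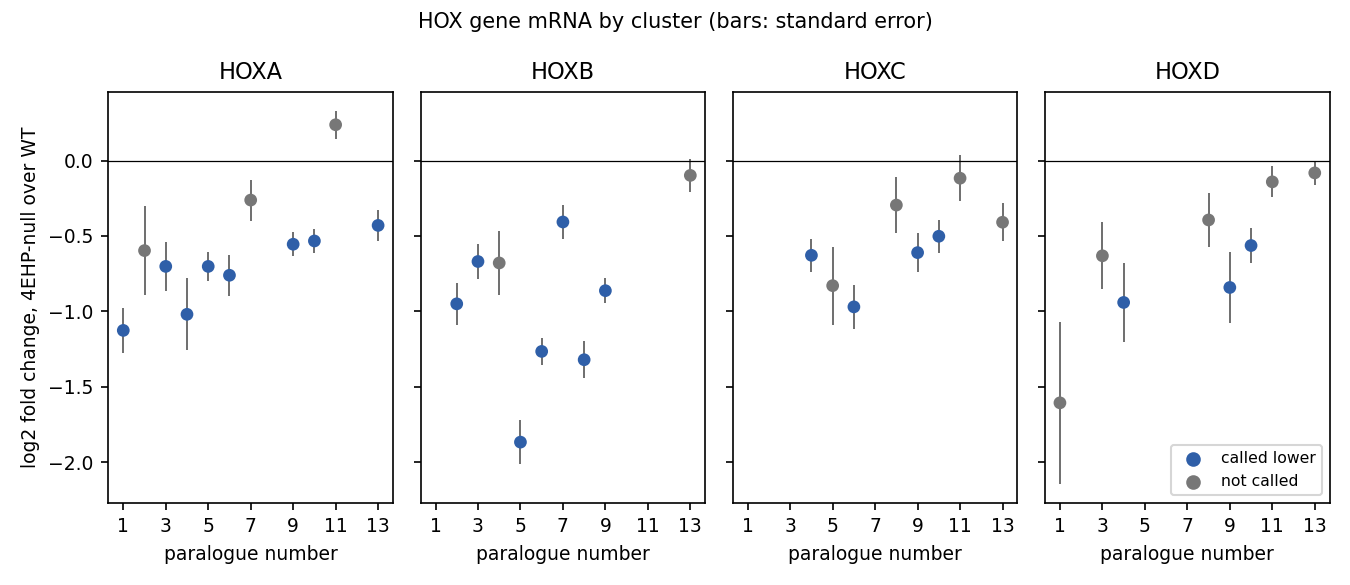
Log2 fold change of 4EHP-null over WT, with standard error, for the 36 tested HOX genes by cluster and paralogue number. Of these, 35 lie below 0; the called falls (22 genes, blue) reach -1.87 at HOXB5, and HOXA11, at 0.24, is the exception above 0.

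A pair of non-coding transcripts of the clusters fell as well. HOTAIRM1, a non-coding RNA of the HOXA cluster, had 10.51 and 11.01 CPM in 4EHP-null, against 24.3 and 25.8 CPM in WT (-1.22 ± 0.13, adjusted p = 9.01e-05). The antisense transcript HOXB-AS3 had 7.58 and 7.12 CPM in 4EHP-null, against 17.5 and 17.7 CPM in WT (-1.25 ± 0.12, adjusted p = 4.78e-05). No source used here gives the strand setting of the counting, so reads of a HOX gene and of an antisense transcript over it cannot be told apart, and these values are not separate evidence. Genes that flank the clusters had medians near that of all genes, except around HOXA. For the 12 tested genes on each side, the median log2 fold change was 0.13 around HOXA on chromosome 7, 0.02 around HOXB on chromosome 17, -0.05 around HOXC on chromosome 12 and 0.00095 around HOXD on chromosome 2. Of these 96 flanking genes, 5 were called higher and 2 lower.

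Homeobox and paired-box factors outside the clusters also leaned downward, with 17 lower and 1 higher of 98 tested (18.4% called). SATB1, a chromatin organiser, had 1.77 and 1.68 CPM in 4EHP-null, against 15.7 and 14.1 CPM in WT (-3.11 ± 0.16, adjusted p = 9.86e-08). BARX2, a factor of muscle and craniofacial development, had 3.27 and 2.74 CPM in 4EHP-null, against 17.7 and 16.2 CPM in WT (-2.49 ± 0.15). The list's median was -0.07, and without 1 library 8 to 11 members were called. The sole rise, OTX2 at 0.92 ± 0.27, lost its call without any 1 of the 4 libraries. SOX, FOX, GATA, TBX, KLF and SALL factors had 9 lower and 3 higher of 85 (14.1%, close to the 13.1% of all genes); 2 to 5 were called without 1 library and 25 with the replicate block. FOXF1, a mesenchymal forkhead factor, fell with 3.18 and 3.54 CPM in 4EHP-null, against 6.71 and 7.96 CPM in WT (-1.13 ± 0.17). HAND1, a bHLH factor of heart and trophoblast, was at -1.11 ± 0.11 (adjusted p = 3.69e-05).

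Genes of retinoic acid metabolism and response were looked at after the HOX values were seen, because retinoic acid is a known inducer of HOX genes. Of 16 tested, 3 were lower and 1 higher, where 13.1% of all genes were called; the set was picked with values known, so its count is a description. ALDH1A2, which makes retinoic acid from retinaldehyde, had 2.995 and 3.200 CPM in 4EHP-null, against 34.8 and 32.6 CPM in WT (-3.44 ± 0.13, adjusted p = 7.32e-09). RARB, a retinoic acid receptor whose own gene is a classical retinoic acid target, had 0.825 and 0.991 CPM in 4EHP-null, against 4.71 and 5.67 CPM in WT (-2.52 ± 0.24, adjusted p = 3.49e-05). DHRS3, a retinaldehyde reductase, was at -1.33 ± 0.27, and its call ended without 4EHP-null replicate 1 or WT replicate 2. CRABP2, which carries retinoic acid to its receptors, had 41.56 and 45.03 CPM in 4EHP-null, against 18.6 and 17.9 CPM in WT (1.24 ± 0.12, adjusted p = 4.76e-05). The retinoic acid hydroxylases CYP26A1 (-0.34 ± 0.19) and CYP26B1 (0.14 ± 0.17), and the receptors RARA (0.08 ± 0.13) and RARG (-0.14 ± 0.14), were not called.

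The RARB promoter is shown because a match to the retinoic acid response element lies in it. The sequence is RefSeq's, on GRCh38.p14 at chr3:25428013-25428312, plus strand, from 250 bases before to 50 bases after the annotated start. Capitals mark a direct repeat of the nuclear receptor half-site with a 5-base spacer, found by a search of both strands, and starting 53 bases before the start site.
RARB: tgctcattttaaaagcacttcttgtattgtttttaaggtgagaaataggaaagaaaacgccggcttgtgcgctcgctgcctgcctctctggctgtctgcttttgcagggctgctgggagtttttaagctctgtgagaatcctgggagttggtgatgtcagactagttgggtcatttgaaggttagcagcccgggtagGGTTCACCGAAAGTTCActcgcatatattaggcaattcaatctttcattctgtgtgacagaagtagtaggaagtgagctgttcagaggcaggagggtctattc
The same motif was found in 7 of 11170 protein-coding genes with a promoter in the table, or 0.0627%, namely ATXN1L, BATF2, C17orf53, COL24A1, PHF8, PRSS27 and RARB. Of these BATF2, a bZIP factor, rose (1.26 ± 0.38, adjusted p = 0.0465, no longer called once 4EHP-null replicate 1 or either WT replicate was left out). The match describes the letters in that window.

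Receptors for growth factors were the list with the next largest share of calls. Receptor tyrosine kinases and co-receptors of the GDNF family had 11 higher and 3 lower genes of 33 (42.4%), with a median of 0.19; 6 to 9 were called without 1 library. GFRA3, the co-receptor for artemin, had 15.98 and 15.20 CPM in 4EHP-null, against 1.02 and 0.538 CPM in WT (4.36 ± 0.24, adjusted p = 2.34e-07). DDR2, a receptor for fibrillar collagen, had 29.95 and 34.98 CPM in 4EHP-null, against 15.8 and 14.8 CPM in WT (1.09 ± 0.12), and the stem cell factor receptor KIT had 20.5 and 24.9 CPM in 4EHP-null, against 10.8 and 13.4 CPM in WT (0.90 ± 0.14). The ephrin receptor EPHA3 was at 1.11 ± 0.12. IGF1R, the receptor for insulin-like growth factors, went the other way, with 30.7 and 29.1 CPM in 4EHP-null, against 69.1 and 64.1 CPM in WT (-1.16 ± 0.09, adjusted p = 6.65e-06). The 25 tested genes centred on IGF1R along chromosome 15 had a median of -0.40. RET, the signalling partner of the GFRA proteins, was at -0.88 ± 0.25 and no longer called once 4EHP-null replicate 2 or either WT replicate was left out.

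Genes of the actin cytoskeleton rose more often than they fell. Actin and myosin genes had 18 higher and 4 lower members of 74 (29.7%). FLNA, filamin A, which crosslinks actin filaments, had 885 and 714 CPM in 4EHP-null, against 356 and 326 CPM in WT (1.23 ± 0.16, adjusted p = 0.000375). TAGLN2, a transgelin, had 414 and 430 CPM in 4EHP-null, against 301 and 315 CPM in WT (0.45 ± 0.08). Calponin CNN2 fell, with 15.95 and 11.89 CPM in 4EHP-null, against 26.4 and 25.7 CPM in WT (-0.90 ± 0.14). Without 1 library 3 to 10 actin and myosin genes were called, and 3 of the 22 calls held in all 4 such fits. Among adhesion receptors, 4 of 22 integrins were higher and 0 lower, with 1 to 4 called without 1 library and 9 with the replicate block. The integrin share was 18.2%, against 13.1% of all genes. With the replicate block 7 integrins were higher and 2 lower (40.9%, against 22.8% of all genes). ITGA3 had 11.25 and 11.05 CPM in 4EHP-null, against 6.20 and 4.73 CPM in WT (1.04 ± 0.16).

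Tubulins, kinesins and dyneins had 13 higher and 4 lower members of 90 (18.9%), with 6 to 9 called without 1 library. KIF1A, the kinesin of synaptic vesicle precursors, had 135.3 and 123.3 CPM in 4EHP-null, against 56.4 and 64.9 CPM in WT (1.09 ± 0.10, adjusted p = 2.47e-05). TUBA4A had 14.5 and 17.6 CPM in 4EHP-null, against 6.91 and 6.67 CPM in WT (1.24 ± 0.14). Intermediate filament genes outside the neurofilaments had 3 rises and 1 fall of 16. KRT8, a keratin of simple epithelia, had 27.4 and 24.4 CPM in 4EHP-null, against 13.01 and 13.10 CPM in WT (0.99 ± 0.11). KRT17 was at 2.05 and 1.56 CPM in 4EHP-null and 0.203 and 0.0538 CPM in WT.

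Genes of neuronal surfaces and synapses moved in both directions. The list medians ran from -0.07 for synaptic and axonal adhesion molecules to 0.11 for unclustered cadherins. Synaptic and axonal adhesion molecules had 7 higher and 8 lower of 43 (34.9%, median -0.07), with 7 to 11 called without 1 library and 23 with the replicate block. Besides TENM1 and NRXN3, the neural cell adhesion molecule NCAM1 fell, with 12.1 and 11.7 CPM in 4EHP-null, against 29.5 and 25.5 CPM in WT (-1.21 ± 0.11, adjusted p = 3.17e-05). The contactin CNTN1 rose, with 28.5 and 35.0 CPM in 4EHP-null, against 16.4 and 18.6 CPM in WT (0.86 ± 0.13). Unclustered cadherins had 7 higher and 4 lower of 34 (32.4%), with 4 to 7 called without 1 library. N-cadherin, CDH2, had 136 and 133 CPM in 4EHP-null, against 100.2 and 93.2 CPM in WT (0.48 ± 0.08), and the giant cadherin FAT3 had 1.22 and 0.876 CPM in 4EHP-null, against 3.63 and 3.39 CPM in WT (-1.72 ± 0.27).

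Synaptic vesicle and granule genes had 7 higher and 4 lower of 49 (22.4%), with 7 to 9 called without 1 library. SYT11, a synaptotagmin, had 9.02 and 9.87 CPM in 4EHP-null, against 1.08 and 1.34 CPM in WT (2.94 ± 0.26, adjusted p = 2.05e-05). SV2A, a vesicle glycoprotein, had 80.2 and 90.6 CPM in 4EHP-null, against 35.3 and 46.8 CPM in WT (1.05 ± 0.12). SYT2 (-0.96 ± 0.16) and the complexin CPLX1 (-1.38 ± 0.24) were lower, so the list held vesicle proteins that moved in opposite directions. Potassium channels had 6 higher and 8 lower of 59 (23.7%, median 0.00024), with 6 to 10 called without 1 library. KCNT2, a sodium-activated member, had 12.5 and 13.6 CPM in 4EHP-null, against 7.83 and 7.85 CPM in WT (0.74 ± 0.14). Axon guidance genes had 8 higher and 1 lower of 49 (18.4%), with 3 to 6 called without 1 library. The semaphorin SEMA6A had 35.79 and 37.99 CPM in 4EHP-null, against 24.9 and 24.0 CPM in WT (0.60 ± 0.10), while the repellent SLIT2 was at -0.42 ± 0.08 and lost its call without 4EHP-null replicate 1 or WT replicate 2.

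Several secreted and cell surface proteins changed. GPC3, a glypican, had 200.3 and 203 CPM in 4EHP-null, against 43.3 and 44.6 CPM in WT (2.20 ± 0.08), the largest called rise among genes with an average log2 CPM of at least 6. Its list, heparan sulphate proteoglycans and their enzymes, had 6 higher and 2 lower of 34 (23.5%), with 4 to 7 called without 1 library. NPNT, nephronectin, an integrin ligand of kidney development, had 18.1 and 18.9 CPM in 4EHP-null, against 6.44 and 5.51 CPM in WT (1.64 ± 0.13, adjusted p = 5.84e-06). The testican SPOCK3 had 9.41 and 9.87 CPM in 4EHP-null, against 2.71 and 3.09 CPM in WT (1.73 ± 0.17), the opposite direction to SPOCK1. Wnt ligands and secreted modulators had 4 higher and 2 lower of 21 (28.6%). The rises numbered 3 without 4EHP-null replicate 2, 1 without 4EHP-null replicate 1 or WT replicate 2, and 0 without WT replicate 1. WNT3A had 1.13 and 0.724 CPM in 4EHP-null, against 3.80 and 4.68 CPM in WT (-2.17 ± 0.26) in a run of neighbours with a median of -0.51, and the antagonist SFRP1 was at -4.11 ± 0.18. The angiopoietin-like ANGPTL2 had 5.29 and 5.52 CPM in 4EHP-null, against 1.29 and 1.29 CPM in WT (2.06 ± 0.22), and NELL2, a secreted neuronal glycoprotein, was at -3.92 ± 0.17. Of intracellular kinases, MAPK13, the delta isoform of the p38 kinase, had 10.1 and 8.53 CPM in 4EHP-null, against 3.49 and 2.34 CPM in WT (1.69 ± 0.19).

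Antigen presentation genes had 10 higher and 2 lower of 39 (30.8%, median 0.17), with 6 to 10 called without 1 library. NLRC5, the transactivator of MHC class I genes, had 5.99 and 5.83 CPM in 4EHP-null, against 2.47 and 2.72 CPM in WT (1.18 ± 0.19). The class II chain HLA-DPA1 had 33.4 and 38.5 CPM in 4EHP-null, against 22.98 and 20.41 CPM in WT (0.73 ± 0.11). HLA-B, a class I heavy chain, fell, with 106 and 104 CPM in 4EHP-null, against 144.4 and 149.8 CPM in WT (-0.49 ± 0.07). HLA genes are near-identical copies and polymorphic, and how reads were split among them is uncertain.

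Promoter sequence was set beside the changes of at least 2-fold, as a description. RefSeq promoters of 300 bases were matched to 11946 tested genes, 11170 of them protein-coding, taking the first start listed for each gene. The median was 17 CpG per promoter in genes up at least 2-fold and 23 in genes down at least 2-fold, against 26 in all 11170. Genes with such changes were also less abundant, with a median of average log2 CPM of 1.89 for the rises and 1.52 for the falls, against 4.94 for all, and the part of abundance in the difference was not tested. The core of the interferon-stimulated response element, read as GAAA, 2 bases of any kind and GAAA on either strand, stood in 11 promoters of genes up at least 2-fold (8.15%) and in 4 of those down (2.63%), against 2.68% of all. Without HIST symbols it stood in 9 of the rises (7.09%), against 2.66% of all. Among the 11 were BST2, OAS3, SAMD9, LGALS3BP and KIF1A, whose calls held without any 1 library, IFI44L and BTN3A3, whose calls did not, and the histone genes HIST1H3H and HIST2H3D. TATAAA on the gene strand stood in 11.1% of promoters up at least 2-fold and 3.95% of those down at least 2-fold, against 3.71% of all. Without histone symbols (HIST) the share was 6.30% of the rises, against 3.58% of all; 7 of 15 such rises were histone genes, which were high in 4EHP-null replicate 2.

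The BST2 and OAS3 promoters are shown for these letters, because their genes rose in both 4EHP-null libraries. BST2 encodes tetherin, which holds budding viruses at the cell surface, and had 77.4 and 84.0 CPM in 4EHP-null, against 4.81 and 3.87 CPM in WT (4.22 ± 0.13). OAS3, which makes the second messenger that activates RNase L, had 12.2 and 12.9 CPM in 4EHP-null, against 4.78 and 6.05 CPM in WT (1.20 ± 0.15, adjusted p = 0.000319). Capitals mark the matches, and the first match begins 130 bases before the start in BST2 and 143 before it in OAS3. Both are RefSeq sequences on GRCh38.p14, BST2 at chr19:17405581-17405880 on the minus strand and OAS3 at chr12:112938224-112938523 on the plus strand. The 2 matches in BST2 overlap.
BST2: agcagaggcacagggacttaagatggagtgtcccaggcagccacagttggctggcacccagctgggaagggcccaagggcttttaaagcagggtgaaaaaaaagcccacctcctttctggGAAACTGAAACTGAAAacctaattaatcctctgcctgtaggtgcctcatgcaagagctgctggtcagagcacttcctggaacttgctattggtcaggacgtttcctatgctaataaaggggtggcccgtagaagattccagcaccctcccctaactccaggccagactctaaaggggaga
OAS3: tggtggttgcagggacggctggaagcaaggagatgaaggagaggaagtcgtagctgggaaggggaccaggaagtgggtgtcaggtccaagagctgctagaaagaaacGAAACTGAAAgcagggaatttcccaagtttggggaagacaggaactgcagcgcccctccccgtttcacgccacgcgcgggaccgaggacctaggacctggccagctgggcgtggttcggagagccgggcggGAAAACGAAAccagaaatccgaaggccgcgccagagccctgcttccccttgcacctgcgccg

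Lysosomal proteins had 10 higher and 6 lower of 73 (21.9%, median 0.05), with 6 to 7 called without 1 library. GLA, alpha-galactosidase A, was the sole member of that list down at least 2-fold (GALC was not on it), with 56.2 and 53.5 CPM in 4EHP-null, against 218.5 and 229.9 CPM in WT (-2.03 ± 0.09, adjusted p = 5.60e-08). Its neighbours on chromosome X included HNRNPH2 at -0.22 and ARMCX6 at -0.01, neither called, and RPL36A, which fell. In the same part of that chromosome TIMM8A (-0.43) and BEX5 (-2.49) were called lower and TCEAL3 (0.70) higher. Others there, such as BEX1 and TCEAL4, were not called. TPP1, a lysosomal peptidase, had 101 and 106 CPM in 4EHP-null, against 68.5 and 60.1 CPM in WT (0.69 ± 0.09). Cytochromes P450, conjugating and aldehyde enzymes had 6 higher and 4 lower of 80 (12.5%), with 5 to 8 called without 1 library and 21 with the replicate block. GSTO1, a glutathione transferase, had 66.5 and 79.0 CPM in 4EHP-null, against 117 and 116 CPM in WT (-0.68 ± 0.10), in a stretch of chromosome 10 whose 25 neighbouring genes had a median of -0.30. GALNT14, an enzyme that starts mucin-type O-glycans, was at -2.10 ± 0.22, while GALNT6 (1.09 ± 0.16) and GALNT3 (1.46 ± 0.28, not called without WT replicate 1) of the same O-glycosylation family rose.

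Several lists of cellular machinery had shares below the 13.1% of all genes, but not all of them did so with the replicate block. Enzymes of tRNA and RNA modification had 2 higher and 1 lower of 90 (3.33%), autophagy genes 1 and 1 of 44 (4.55%), and SR proteins, hnRNPs and spliceosome genes 1 and 5 of 131 (4.58%). With the replicate block, where 22.8% of all genes were called, the shares were 12.2% for the modification enzymes, 18.2% for autophagy and 27.5% for the spliceosome list. Nucleoporins and nuclear transport genes had 3 higher and 0 lower of 63 (4.76%), but those 3 held without any 1 library. TPR, the nuclear basket protein, had 226 and 313 CPM in 4EHP-null, against 94.3 and 97.6 CPM in WT (1.49 ± 0.14, adjusted p = 2.51e-05). RANBP2 (0.77 ± 0.11) and NUP210 (0.76 ± 0.10) were the others. With the replicate block 5 members of that list were higher and 0 lower (7.94%). Ribosome biogenesis genes had 8 higher and 2 lower of 106 (9.43%), or 23.6% with the replicate block. Polycomb and chromatin remodelling genes had 6 and 5 of 90 (12.2%), and writers and erasers of chromatin marks 11 and 1 of 95 (12.6%); with the replicate block the shares were 26.7% and 22.1%. Without 1 library 3 to 8 and 2 to 9 members of these lists were called. DNMT1, the maintenance DNA methyltransferase, had 225 and 218 CPM in 4EHP-null, against 164 and 138 CPM in WT (0.55 ± 0.11), no longer called once WT replicate 2 was left out.

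**Figure D4:**
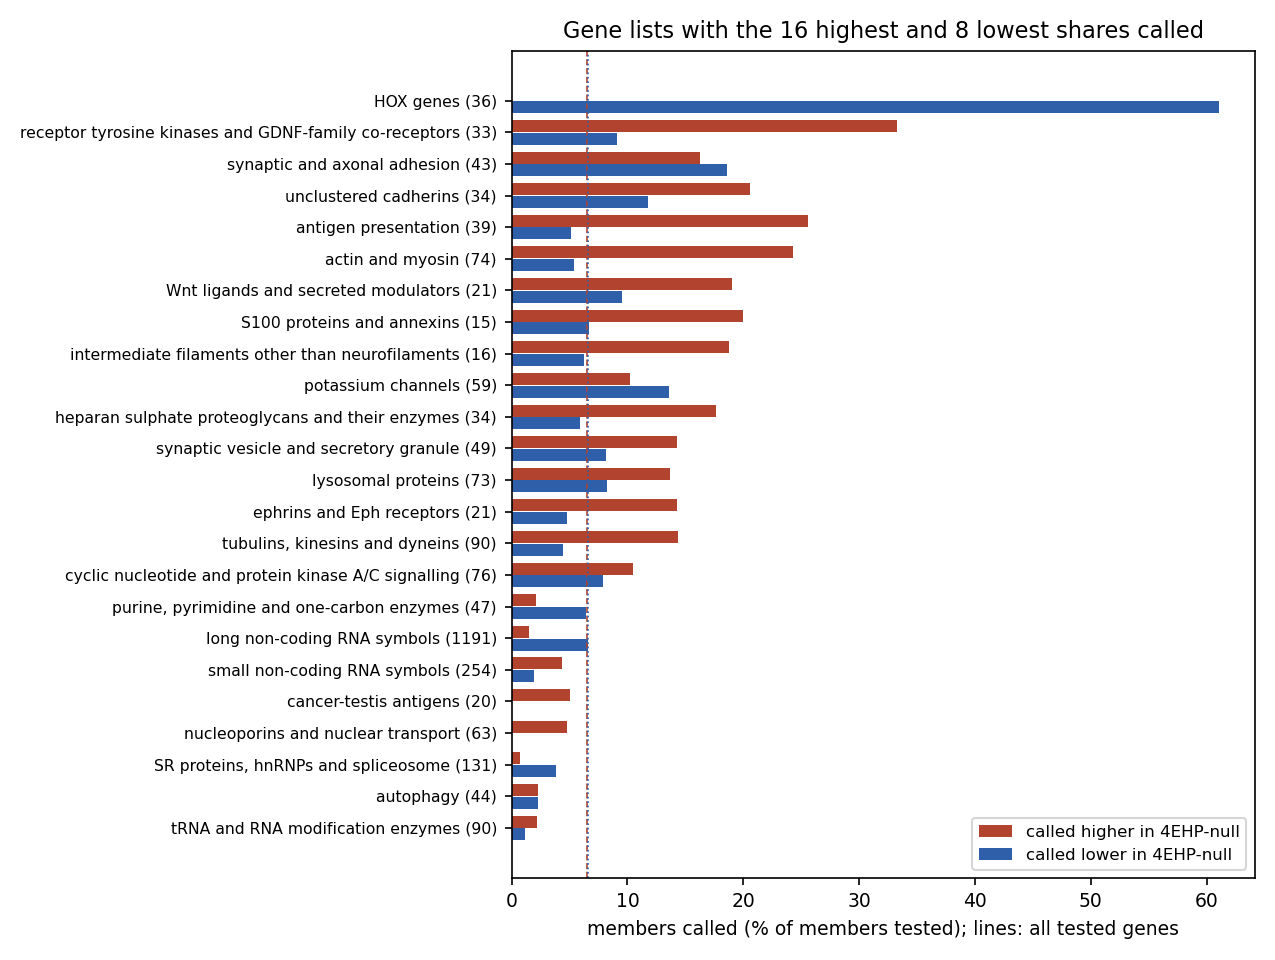
Share of tested members called higher (red) or lower (blue) in 4EHP-null for the lists with the 16 highest and the 8 lowest shares called among those with at least 15 members tested (number in parentheses); vertical lines mark all tested genes, 6.47% up and 6.63% down. HOX genes stand out at 61.1% lower and 0 higher, and the 8 lists at the bottom lie at or below the lines in this fit.

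By chromosome the share called ran between 6.05% and 38.8%. Chromosome 10 had 45 higher and 194 lower of 616 genes and chromosome 15 had 15 and 115 of 527 (24.7%), against 13.1% over all. Chromosome 12 had 91 higher and 29 lower of 801, and chromosome 3 had 98 and 20 of 862. Of the called falls 378 lay in runs where the median of 25 neighbouring genes was at least 0.25 from 0. Fewer of the called rises lay in such runs. The runs held 1054 of the 15251 tested genes that were placed on chromosomes. They were defined from the same log2 fold changes, so their overlap with called genes is partly built in. Several abundant genes that rose most, after GPC3, lay in such runs. FAM21C, a WASH complex subunit that shares reads with its near-identical copy FAM21A, had 184 and 191 CPM in 4EHP-null, against 48.6 and 55.2 CPM in WT (1.85 ± 0.09), and its 25 neighbours had a median of 1.29. The ubiquitin ligase MARCH8 (1.75 ± 0.09), the mitochondrial import channel TIMM23 (1.54 ± 0.08), the ferritin receptor NCOA4 (1.43 ± 0.08) and the kinase MAPK8 (1.36 ± 0.10) lay in the same run on chromosome 10. DNA copy number was not measured here.

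Long non-coding RNA symbols had 18 higher and 79 lower of 1191 (8.14%, median -0.12). The falls were 6.63% of the list, the same share as of all genes, and the rises 1.51%, against 6.47% of all genes. With the replicate block 34 members were higher and 127 lower (13.5%, against 22.8% of all genes). Rare genes were called less often, 5.49% of those with an average log2 CPM under 0. The part of abundance in the list's shares was not tested. SNHG5, a snoRNA host transcript, had 90.4 and 107 CPM in 4EHP-null, against 171 and 189 CPM in WT (-0.87 ± 0.10). The uncharacterised LOC102723828 rose, with 9.75 and 10.6 CPM in 4EHP-null, against 0.136 and 0.403 CPM in WT (5.15 ± 0.32). Small non-coding RNA symbols had 11 higher and 5 lower of 254 (6.3%, against 13.1% of all genes), and several rises rested on 4EHP-null replicate 2. With the replicate block 21 of these symbols were higher and 13 lower (13.4%, against 22.8% of all genes). RMRP, the RNA of the mitochondrial RNA processing ribonuclease, had 0.428 and 186 CPM in 4EHP-null, against 0.508 and 1.24 CPM in WT. RPPH1, the RNase P RNA, had 0.825 and 204 CPM in 4EHP-null, against 0.746 and 1.67 CPM in WT. Symbols of histone genes summed to 99.6 and 235.2 CPM in 4EHP-null, against 124.5 and 124.9 CPM in WT. The signalling phospholipase PLCG2, at 9.87 and 92.2 CPM in 4EHP-null against 7.52 and 8.82 CPM in WT, lost its call without 4EHP-null replicate 2, as did RMRP and RPPH1.

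Ribosome footprints of the same genotypes moved mostly in the direction of the mRNA. Of the 2048 genes called in mRNA, 1902 were also tested in footprints, and 1767 of them (92.9%) moved in the same direction, where 65.8% of 11355 genes not called in mRNA did so. Fewer passed the test in the shallower footprint libraries: 284 were called in the same direction and 1, FSD2, in the opposite one. Of 14722 genes in footprints 3.04% were called, 1.58% up and 1.46% down. Among genes higher in mRNA the median log2 change was 0.39 in footprints and 0.54 in mRNA, and among genes lower in mRNA it was -0.47 in footprints and -0.50 in mRNA. BST2 (4.29 ± 0.18), TSC22D3 (-2.90 ± 0.23), ALDH1A2 (-3.10 ± 0.27), GLA (-2.14 ± 0.15) and EIF4E2 (-1.31 ± 0.18) changed in footprints by about as much as in mRNA. Of 32 HOX genes tested in footprints, 31 were below 0, with 6 called lower and a median of -0.57. NRXN3 fell by 1.03 ± 0.19 in footprints, less than its mRNA change of -5.15 ± 0.26; the difference between assays was not tested. FSD2 had a log2 change of -0.83 ± 0.18 in mRNA and 0.91 in footprints (adjusted p = 0.0303), and its mRNA call ended without 4EHP-null replicate 1 or WT replicate 1.

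**Figure D5:**
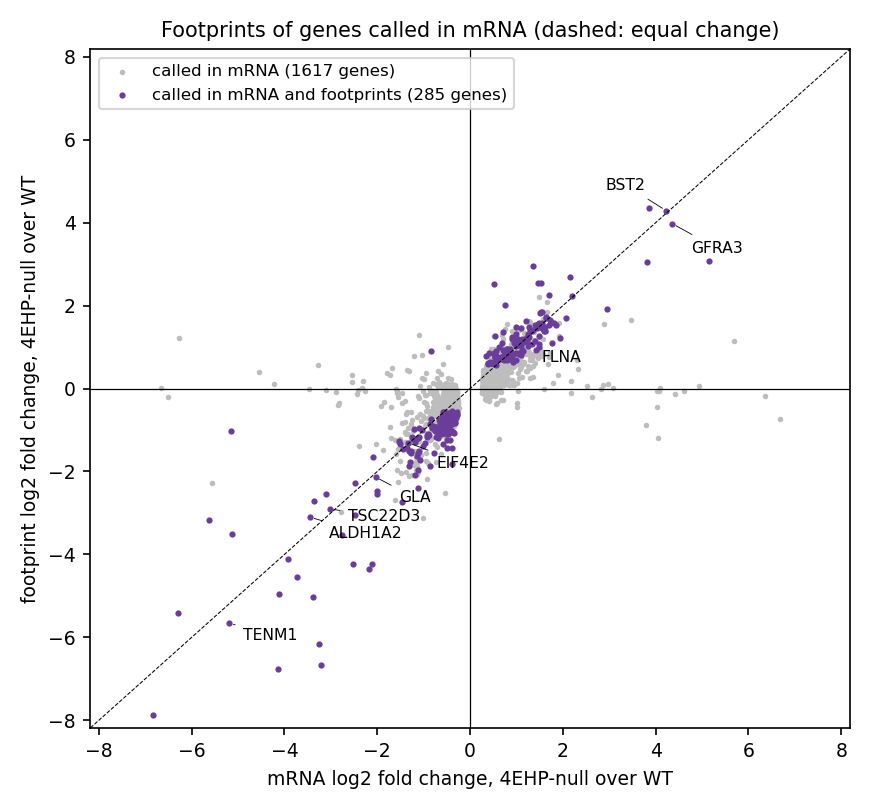
Footprint log2 fold change against mRNA log2 fold change, 4EHP-null over WT in both, for the 1902 genes called in mRNA and tested in footprints; purple marks the 285 genes also called in footprints. BST2, TENM1, TSC22D3, GLA and EIF4E2 lie close to the dashed line of equal change, while some genes with large mRNA changes sit near a footprint change of 0.

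The GIGYF1/2-null cells were compared with the same WT libraries, so the values are given side by side only. In that comparison 11.9% of the 15637 genes were called. TENM1 was at -5.19 ± 0.21 in 4EHP-null and -3.22 in GIGYF1/2-null cells. LGALS3BP, a secreted galectin-3 binding protein, was at 1.15 ± 0.11 in 4EHP-null and 1.55 in GIGYF1/2-null cells, and CRABP2 at 1.24 ± 0.12 and 1.05. For ALDH1A2 the values were -3.44 ± 0.13 in 4EHP-null and 0.30 in GIGYF1/2-null cells, for BST2 4.22 ± 0.13 and 0.05, and for HOXB6 -1.27 ± 0.09 and 0.06. GLA was at -2.03 ± 0.09 in 4EHP-null and 1.13 in GIGYF1/2-null cells, and CHRDL1 at -3.22 ± 0.35 and 2.35. The HOX genes had 22 lower members of 36 in 4EHP-null and 8 in GIGYF1/2-null cells, with medians of -0.63 and -0.09. All 8 were HOXA genes: of the 11 in that cluster, 8 were lower in 4EHP-null (median -0.60) and 8 in GIGYF1/2-null cells (median -0.52), while HOXB, HOXC and HOXD had 7, 4 and 3 lower in 4EHP-null and 0 each in GIGYF1/2-null cells.

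The submitters' own test covered fewer genes. The authors' deposited table lists 11268 genes, of which 2246 (19.9%) had an adjusted p under 0.05, 1107 higher and 1139 lower. Of the 1659 genes called here and present in the authors' deposited table, 1657 were called there in the same direction. The authors' deposited table gives ALDH1A2 a log2 fold change of -3.45 and HOXB6 one of -1.27.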

How the data were processed

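RNA-seq and Ribo-seq were measured in HEK293T cells. The authors deposited raw counts per gene, and their table of log2 fold changes, log2 CPM and adjusted p-values. The submitters' processing notes name Bowtie2, TopHat2, edgeR and the hg19 build; no source used here gives the annotation or the counting settings. RNA-seq libraries held 26143118 to 38175701 counts. Reads without molecular identifiers are not independent molecules, so intervals and floors cover counting error only.

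All 6 RNA-seq libraries entered 1 fit with genotype as the factor (edgeR 4.0.16, TMM scaling, filterByExpr, quasi-likelihood F-test, Benjamini-Hochberg adjustment over 15637 genes). The common biological coefficient of variation was 0.0862. Footprints were fitted alike. Alternatives were RLE and upper-quartile scaling, other filters, DESeq2 1.42.0, limma-voom 3.58.1, the 4 libraries alone, a replicate block, each library left out, coding genes alone and no genes in runs. Symbols were matched to RefSeq for 25573 of 27011 genes (94.7%) for biotype, chromosome and gene order. Same-numbered libraries deviated together in all 3 pairs of genotypes across 11735 genes. The correlations were 0.220 for 4EHP-null and WT, 0.438 for GIGYF1/2-null and WT, and 0.250 for 4EHP-null and GIGYF1/2-null. Block results therefore stand beside totals called, over all genes and per described gene list, that the replicate block moves by over 1.5-fold. The labels do not say what a number shares.

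Named genes were EIF4E2; the 15 largest changes each way among genes at 2 or more in average log2 CPM whose groups did not overlap; the 10 smallest adjusted p-values each way at 6 or more in average log2 CPM; 4 each way among non-coding or uncharacterised symbols; and up to 3 each way per gene list. HOX, retinoid, near-absent, promoter-motif and replicate-2 genes were added after their values were seen. The genes and 59 lists were chosen with earlier results of these data known. Of the tested genes 4684 are in a list, and 1416 called genes are in none. Some genes and 1 list are not reported here.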

Additional observations from a re-analysis of the deposited data

How the results depend on the processing

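Of 377 named genes with a call, RMRP and RPPH1 changed direction, without 4EHP-null replicate 2, where their log2 fold changes were -1.07 and -0.59; without 4EHP-null replicate 1 they were 7.67 and 7.35. RLE and upper-quartile scaling, DESeq2, limma-voom, coding genes alone and a filter of at least 1 CPM in 4 libraries gave 1974 to 2061 called genes, against 2048. Without a filter 2907 of 20769 genes were called, 1429 up and 1478 down, with 485 list members up and 436 down. The 4 libraries alone gave 2540 calls. Leaving out 1 library gave 810 to 1125 calls, 347 to 611 up and 449 to 514 down, with 114 to 233 up and 152 to 185 down by at least 2-fold, 120 to 232 list members up and 143 to 165 down, 14 to 19 HOX genes down, and 213 to 241 calls shared with footprints; a lone sample was assumed to vary like the other groups. Without genes in runs of neighbours 1359 genes were called, 619 of them down, with 192 list members down, 8 HOX genes down and 162 calls shared with footprints; HOX genes form such runs themselves and 14 of the called ones were removed. The numbering of replicates is shared between genotypes, and same-numbered libraries deviated together. With the replicate block 3571 genes were called, 1820 up and 1751 down, with 598 list members up and 477 down, and all 2048 calls were among them; no called gene that is named lost its call. Depth limits the rare genes: the median standard error was 0.53 under a log2 CPM of 0 and 0.084 between 6 and 8.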
